A study of Mus musculus with 4 samples.

Results

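The genes described here are the inhibitor of DNA binding genes Id2 and Id3, the E protein genes Tcf3 and Tcf12, and 6 regulators of the naive, memory or quiescent T cell state: Tcf7, Lef1, Bach2, Klf2, Foxo1 and Satb1. These 10 genes were taken by name from the 47643 genes of the deposited count table, and all 10 were among the 9608 genes that reached 10 counts in total and were tested. The members were chosen by their measured log2 fold changes and levels in the comparison of Il10-EGFP+ with Il10-EGFP- T cells, as a list drawn up with those results known. Their levels, fold changes and calls in that comparison are therefore a description, with no p-value for any of the 10.

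The study asked how CD4+ T cells that switch on Il10 within a day of peptide treatment differ from those that do not. Tg4 Nr4a3-Tocky Il10-EGFP mice carry a transgenic T cell receptor specific for a myelin basic protein peptide, a Timer protein driven by Nr4a3 that reports recent receptor signalling, and an EGFP reporter of Il10. They received 4 mg/kg of the peptide [4Y]-MBP subcutaneously, and 24 h later CD4+ Nr4a3-Timer+ cells were sorted from the spleen into an Il10-EGFP+ population (2 libraries) and an Il10-EGFP- population (2 libraries). Both populations thus share the genotype, the peptide and the Timer+ gate, and neither is a resting control. The gate does not match the strength of receptor signalling. The paper cites earlier work in which Il10-EGFP+ T cells arose from the most strongly signalled cells. The receptor is a transgene, so that the cells model the response of a single specificity, and the age of the mice was not given in the sources used here. According to the methods, principal component analysis led to the removal of another replicate pair, which is not analysed here. The methods describe the sorted replicates as biological replicate mice and the removed libraries as a replicate pair, while the labels name no mouse for a library, so that errors and tests measure the spread between 2 such replicates in each population.

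Libraries were made from the 3′ ends of transcripts (QuantSeq 3′ FWD), held 644679 to 730330 counts each, and were made from 5 ng of RNA with 22 PCR cycles. Levels are given as CPM, the count divided by the library's total count and brought to a common scale with trimmed mean of M values (TMM) factors, where 3 counts correspond to 4.11 to 4.65 CPM. Since a transcript gives reads mostly at its 3′ end, a count does not grow with transcript length, and levels of different genes are set side by side on this scale. The edgeR quasi-likelihood test with Benjamini-Hochberg adjustment called 393 of the 9608 genes at an adjusted p under 0.05, of which 226 were higher and 167 lower in Il10-EGFP+ T cells. All 10 listed CD4 T cell markers were tested and none was called by edgeR, DESeq2 or limma voom (4 had an unadjusted p under 0.05 in edgeR), with a summed level of 2303 and 2241 CPM in the Il10-EGFP- libraries and 2927 and 2621 CPM in the Il10-EGFP+ libraries. With the replicate number added to the edgeR fit, 1 of these markers was called. In bulk libraries, fewer cells expressing a gene and less RNA per cell cannot be told apart.

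E proteins are basic helix-loop-helix transcription factors that bind DNA at E-boxes, and in T cells the main members are E2A, encoded by Tcf3, and HEB, encoded by Tcf12. Id proteins have the helix-loop-helix but lack the basic region that contacts DNA, so that an E protein held by an Id protein cannot bind. In mature T cells Id2 is known for effector differentiation, and Id3 for naive, memory precursor and follicular helper cells and for limiting the response of regulatory cells. TCF1 (Tcf7), LEF1, BACH2, KLF2, FOXO1 and SATB1 are known for the naive and memory states, for quiescence or for the organisation of chromatin in T cells.

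DNA upstream of the transcription start is shown for Id2 and Klf2, the 2 genes of the list called higher, because it contains letters that E proteins or EGR factors are known to read. The sequences are from RefSeq on GRCm38, 5′ to 3′ on the gene's strand, and only bases outside annotated exons are printed. The bases nearest each RefSeq start are left out. For Id2 they lie at chr12:25096254-25096342 on the minus strand, in an intron of a longer Id2 transcript, and the capitals mark an E-box 196 bases before the RefSeq start. For Klf2 they lie at chr8:72318812-72319032 on the plus strand, next to the annotated gene, and the capitals mark an EGR-type match 199 bases before the RefSeq start.
Id2: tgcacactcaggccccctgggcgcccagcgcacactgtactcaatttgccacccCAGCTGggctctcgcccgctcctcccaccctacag
Klf2: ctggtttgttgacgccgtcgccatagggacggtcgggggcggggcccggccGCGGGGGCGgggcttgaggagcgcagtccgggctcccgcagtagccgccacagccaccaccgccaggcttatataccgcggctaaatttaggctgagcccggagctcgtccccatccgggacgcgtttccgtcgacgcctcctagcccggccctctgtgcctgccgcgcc

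The 250 bases before each RefSeq start were searched on both strands for an E-box (CANNTG), an EGR-type site (GCGNGGGCG), a TCF/LEF site (CTTTGA), a forkhead site (GTAAACA) and the BACH-MAF recognition element. Of 32851 such windows in the genome, 66.2% held the E-box letters, 4.70% the EGR letters, 13.8% the TCF/LEF letters, 3.17% the forkhead letters and 0.134% the BACH-MAF element. The window of Id2 held the E-box alone, and that of Klf2 the EGR-type match alone, but neither motif was particular to the genes called higher. E-box letters also stood before at least 1 start of Tcf3, Tcf12, Tcf7, Lef1, Foxo1 and Satb1, and EGR-type letters before a start of Tcf7, which was called lower, and of Satb1, which was not called. TCF/LEF letters stood before starts of Lef1 and Bach2. The window of Id3, which lies inside an annotated exon and is not printed, held none of the 5 motifs. These matches are letters in a window and were not tied to binding.

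Id2, which antagonises E proteins, was the higher of the 2 Id genes in every library, and the distance between them was far greater in Il10-EGFP+ T cells. Id2 (ENSMUSG00000020644, chr12:25093799-25097140, minus strand) had 61 and 68 counts in Il10-EGFP- T cells against 168 and 168 counts in Il10-EGFP+ T cells. The populations did not overlap, with Il10-EGFP+ the higher. The mean level was 254.3 ± 16.9 CPM in Il10-EGFP+ against 91.0 ± 11.6 CPM in Il10-EGFP- T cells (SD over 2 libraries), which is a log2 fold change of 1.48 with a 95% interval of 1.10 to 1.87. Among the 10 genes Id2 was the 6th highest in Il10-EGFP- and the 2nd highest in Il10-EGFP+ T cells.

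Id3 (ENSMUSG00000007872, chr4:136143497-136145755, plus strand), the other Id gene of mature T cells, went the opposite way. It had 25 and 38 counts in Il10-EGFP- T cells against 4 and 2 counts in Il10-EGFP+ T cells, which do not overlap. The mean level was 4.61 ± 2.44 CPM in Il10-EGFP+ against 44.7 ± 15.2 CPM in Il10-EGFP- T cells (SD over 2 libraries), and the log2 fold change was -3.24 with a 95% interval of -4.34 to -2.14. The Il10-EGFP+ level lies near the 3-count limit of a library. Over the summed counts of 63 and 6, Id3 was 9.78-fold higher in Il10-EGFP- T cells, with an exact 95% interval of 4.25 to 27.6 that covers counting error only. Id3 was the lowest of the 10 genes in both populations, and 60.9% of the tested genes lay below it in Il10-EGFP- but 6.41% in Il10-EGFP+ T cells.

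**Figure D1:**
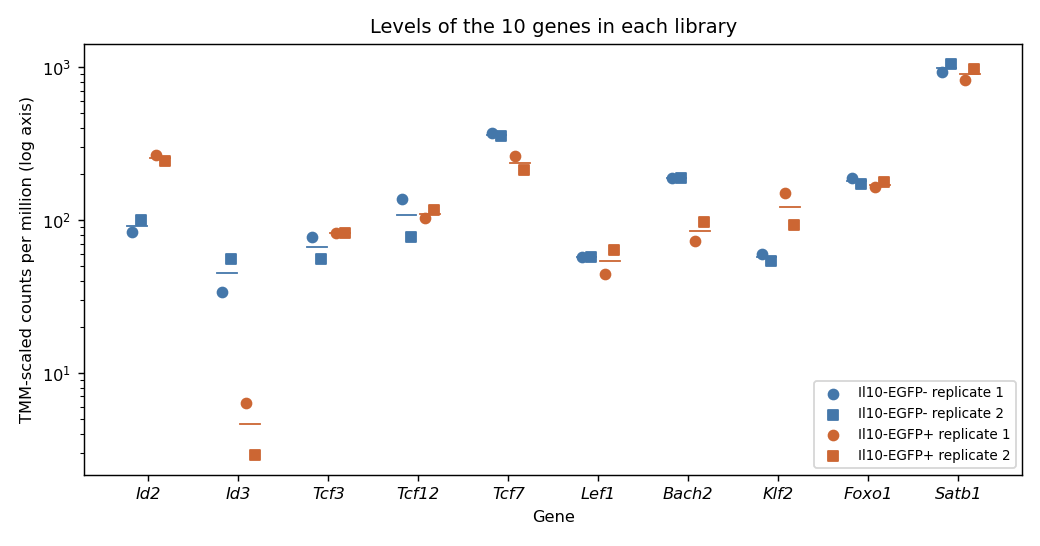
Level of each of the 10 genes in each library, as TMM-scaled CPM on a log axis. Circles are replicate 1 and squares replicate 2, blue is Il10-EGFP- and orange Il10-EGFP+, and short lines are the means of 2 libraries. Id3 fell from 44.7 to 4.61 CPM while Id2 rose from 91.0 to 254.3 CPM, and Satb1 stayed the highest of the 10 in both populations.

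Within each library the balance of the 2 Id genes does not depend on scaling. Id2 made up 70.9% (exact 95% interval 60.1 to 80.2) and 64.2% (54.3 to 73.2) of the Id2 plus Id3 counts in the Il10-EGFP- libraries. It made up 97.7% (94.2 to 99.4) and 98.8% (95.8 to 99.9) in the Il10-EGFP+ libraries. Both Il10-EGFP+ libraries had the larger share. The ratio of the summed counts was 2.05 Id2 counts per Id3 count in Il10-EGFP- and 56.0 in Il10-EGFP+ T cells, a log2 change of 4.77, for which counting error alone gives 3.51 to 6.30. Leaving out 1 library at a time gave log2 changes of 4.36 to 5.36. In the deposited rlog values, which shrink low counts towards the mean of the gene, the same change was 1.14, with 0.77 from Id2 and -0.37 from Id3. The 2 other Id genes were near or at 0, Id1 with 0, 1, 1 and 0 counts and Id4 with 0 counts in each library, where 0 counts allow up to 3.

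The E protein genes were close between the populations. Tcf3 (ENSMUSG00000020167, chr10:80409514-80433647, minus strand) had 57 and 38 counts in Il10-EGFP- T cells against 52 and 57 counts in Il10-EGFP+ T cells. On the CPM scale the Il10-EGFP+ libraries were the higher ones, at 82.3 ± 0.115 against 66.4 ± 15.5 CPM (SD, n = 2 each), and the log2 fold change of 0.30 had a 95% interval of -0.21 to 0.82. Tcf12 (ENSMUSG00000032228, chr9:71842688-72111871, minus strand) had 101, 53, 65 and 81 counts in Il10-EGFP- replicates 1 and 2 and Il10-EGFP+ replicates 1 and 2. Its 2 Il10-EGFP- libraries were the highest and the lowest of the 4, and the log2 fold change was 0.03 with an interval of -0.43 to 0.49. Neither was called, and the intervals leave room for changes of up to 0.82 for Tcf3 and 0.49 for Tcf12 on the log2 scale. Tcf3 made up 36.1% and 41.8% of the Tcf3 plus Tcf12 counts in Il10-EGFP- against 44.4% and 41.3% in Il10-EGFP+ T cells. The transcript ends of Tcf12 share 9 sequences of 50 bases with an antisense gene, Gm34885, whose counts were not used here. Tcf4, which encodes the E protein E2-2, had 7, 4, 7 and 6 counts and added little to this pool.

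Set against the E protein transcripts, Id2 took a larger share in Il10-EGFP+ T cells, while the share of the 2 Id genes together depended on 1 library. Id2 made up 27.9% and 42.8% of the Id2, Tcf3 and Tcf12 counts in Il10-EGFP- against 58.9% and 54.9% in Il10-EGFP+ T cells. The log2 change of this ratio was 1.35, with 0.95 to 1.75 from counting error, and it was 0.82 without Il10-EGFP- replicate 1. With Id3 counted too, the Id share was 35.2% and 53.8% in Il10-EGFP- against 59.5% and 55.2% in Il10-EGFP+ T cells, so that the second Il10-EGFP- library lay close to both Il10-EGFP+ libraries. The log2 change was 0.80, with 0.43 to 1.17 from counting error, but leaving out Il10-EGFP- replicate 1 gave 0.20 and leaving out Il10-EGFP- replicate 2 gave 1.30. Between the 2 Il10-EGFP- libraries, replicate 1 had the higher Tcf12 (101 against 53) and Tcf3 counts (57 against 38) and the lower Id2 (61 against 68) and Id3 counts (25 against 38).

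**Figure D2:**
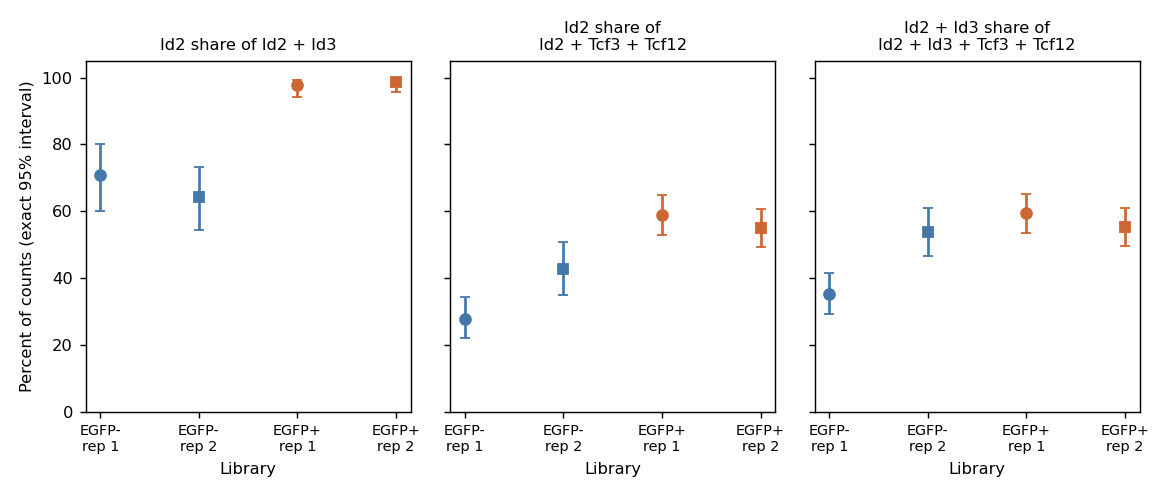
Share of counts within each library, in percent, with exact 95% intervals that cover counting error only. The left panel shows Id2 out of Id2 and Id3, the middle panel Id2 out of Id2, Tcf3 and Tcf12, and the right panel both Id genes out of both Id and both E protein genes. The Id2 share of the Id genes rose from 70.9% and 64.2% to 97.7% and 98.8%, whereas in the right panel Il10-EGFP- replicate 2 reached 53.8%, close to 59.5% and 55.2%.

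Tcf7 and Lef1 encode the related factors TCF1 and LEF1, which maintain naive and memory T cells and can act with β-catenin or with Groucho corepressors. Tcf7 (ENSMUSG00000000782, chr11:52252371-52283014, minus strand) had 271 and 241 counts in Il10-EGFP- T cells against 165 and 148 counts in Il10-EGFP+ T cells. Both Il10-EGFP+ libraries were the lower ones. The level went from 359.7 ± 11.5 to 237.5 ± 33.9 CPM (SD, n = 2 each), a log2 fold change of -0.60 with an interval of -0.92 to -0.29. Tcf7 stayed among the more abundant transcripts, above 92.7% of the tested genes in Il10-EGFP+ T cells. Its call was lost when Il10-EGFP- replicate 1 (log2 fold change -0.57) or Il10-EGFP+ replicate 2 (-0.46) was left out.

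Lef1 (ENSMUSG00000027985, chr3:131110471-131224356, plus strand) had 42 and 39 counts in Il10-EGFP- T cells against 28 and 44 counts in Il10-EGFP+ T cells, which overlap. Its log2 fold change was -0.07 with an interval of -0.66 to 0.52. Tcf7 made up 86.6% and 86.1% of the Tcf7 plus Lef1 counts in Il10-EGFP- against 85.5% and 77.1% in Il10-EGFP+ T cells. The log2 change of that ratio was -0.54, but -0.10 without Il10-EGFP+ replicate 2.

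Bach2 (ENSMUSG00000040270, chr4:32238804-32586108, plus strand) encodes a repressor that holds back effector programmes in T cells, Prdm1 among its known targets. It had 138 and 128 counts in Il10-EGFP- T cells against 46 and 67 counts in Il10-EGFP+ T cells, so that the populations were well apart. The level went from 187.0 ± 0.394 to 84.8 ± 16.8 CPM (SD, n = 2 each), a log2 fold change of -1.13 with an interval of -1.55 to -0.72. It kept its direction and its call with each library left out, at -1.36 to -0.95. Bach2 was the 3rd highest of the 10 genes in Il10-EGFP- and the 7th in Il10-EGFP+ T cells.

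Klf2 (ENSMUSG00000055148, chr8:72319033-72321656, plus strand), a zinc finger factor of quiescent T cells that drives S1pr1, was higher in Il10-EGFP+ T cells. It had 44 and 37 counts in Il10-EGFP- T cells against 94 and 64 counts in Il10-EGFP+ T cells. The populations did not overlap, but the 2 Il10-EGFP+ libraries were 148.9 and 92.3 CPM. The level was 56.9 ± 4.06 against 120.6 ± 40.0 CPM (SD, n = 2 each), and the log2 fold change was 1.07 with an interval of 0.57 to 1.58. Without Il10-EGFP+ replicate 1 it was 0.70 and was no longer called.

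Foxo1 (ENSMUSG00000044167, chr3:52268336-52353221, plus strand), the forkhead factor that promotes Il7r and Klf2 when phosphoinositide signalling is low, had 138 and 117 counts in Il10-EGFP- T cells against 104 and 122 counts in Il10-EGFP+ T cells. The 2 populations overlapped on the CPM scale, and the log2 fold change was -0.07 with an interval of -0.43 to 0.29. The last 500 bases of Foxo1 transcripts share 6, 2 and 6 sequences of 50 bases with Bcl2l13, Knop1 and Rps16, so that some of its reads could be lost or counted elsewhere.

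Satb1 (ENSMUSG00000023927, chr17:51736187-51833290, minus strand), which organises chromatin loops in T cells, was the most abundant of the 10 in each population. It had 683 and 723 counts in Il10-EGFP- T cells against 518 and 674 counts in Il10-EGFP+ T cells. The levels of 991.0 ± 90.4 and 896.6 ± 107.2 CPM (SD, n = 2 each) overlapped, and the log2 fold change was -0.14 with an interval of -0.40 to 0.12. With these counts the interval leaves out a change beyond 0.40 on the log2 scale in either direction, the narrowest of the 10.

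Of the 10 genes, 2 were called higher (Id2 and Klf2), 3 lower (Id3, Tcf7 and Bach2) and 5 were not called, where 4.09% of all tested genes, and 6.71% of those with a mean of at least 20 counts, were called. Because the list was drawn up with this comparison known, nothing is read from that count. The populations did not overlap for 6 of the 10, against 44.6% of all tested genes. The median log2 fold change of the 10 was -0.07, with 4 above and 6 below 0, and that of all tested genes was 0.00.

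The naive and memory regulators thus did not move as a group: Tcf7 and Bach2 were lower, Klf2 was higher, and the intervals of Lef1, Foxo1 and Satb1 included 0. In Il10-EGFP- T cells the order of the 10 from the top was Satb1, Tcf7, Bach2, Foxo1, Tcf12, Id2, Tcf3, Lef1, Klf2 and Id3, where Bach2 and Foxo1, Tcf12 and Id2, Tcf3 and Lef1, Lef1 and Klf2, and Klf2 and Id3 each differed by less than the larger SD of the pair. In Il10-EGFP+ T cells the order was Satb1, Id2, Tcf7, Foxo1, Klf2, Tcf12, Bach2, Tcf3, Lef1 and Id3, where Id2 and Tcf7, Klf2 and Tcf12, and Bach2 and Tcf3 each differed by less than that SD.

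**Figure D3:**
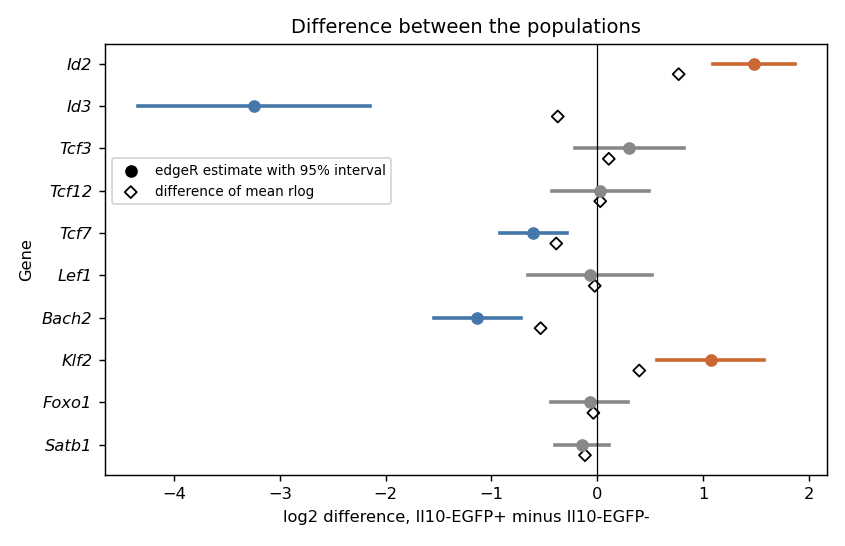
Log2 fold change of each gene, Il10-EGFP+ over Il10-EGFP-, with its 95% interval from edgeR (orange called higher, blue called lower, grey not called), and the difference of the mean deposited rlog values (open diamonds). The rlog differences lie closer to 0, most of all for Id3, at -0.37 against -3.24, and have the same sign for each of the 10 genes.

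Markers of other cell types moved with the populations and are given here because Id2 and Klf2 are also known in innate lymphoid, NK and myeloid cells, and Bach2 and Foxo1 in B cells. Of 7 tested B and plasma cell markers 3 were called higher in Il10-EGFP+ T cells, Jchain, Igkc and Ighm. Jchain had 0 and 0 against 15 and 16 counts and was at least 5.54-fold higher, taking 3 counts per library as the limit for 0. The B and plasma cell list summed to 119.4 and 197.0 CPM in the Il10-EGFP- and 450.0 and 520.8 CPM in the Il10-EGFP+ libraries, with Cd79a at 2, 0, 0 and 0 counts. Of 8 tested myeloid and dendritic markers S100a8 and Lyz2 were called higher, and the list summed to 71.9 and 106.5 against 340.7 and 138.5 CPM, with Adgre1, Siglech and Xcr1 at 0 counts in each library. DESeq2 called neither, and with 1 library left out S100a8 ran from 1.39 (without Il10-EGFP- replicate 1) to 5.41 (without Il10-EGFP- replicate 2) on the log2 scale. The S100a8 call was lost without Il10-EGFP+ replicate 1 (1.65), and the Lyz2 call with any library but Il10-EGFP+ replicate 2 left out, down to 0.42 without Il10-EGFP+ replicate 1. Of 7 tested CD8, NK and innate lymphoid markers Gzma was called higher, and the list summed to 67.9 and 99.2 against 110.9 and 118.3 CPM, with Ncr1 at 0 counts in each library. The Gzma call was lost under DESeq2, with scaling by library size only, and when Il10-EGFP- replicate 1 (log2 fold change 0.83), Il10-EGFP+ replicate 1 (1.22) or Il10-EGFP+ replicate 2 (1.36) was left out. The part of these cells in the values of the 10 genes was not tested. Klf2 and the myeloid markers were both highest in Il10-EGFP+ replicate 1, at 148.9 and 340.7 CPM.

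Lists of other genes of the same pathways were described in the same test, whose calls among all tested genes were 2.35% higher and 1.74% lower. They were written with earlier results of these data known. In the Id and E protein system, which holds partners, cofactors and enzymes of the 2 families, 11 of 22 genes were tested and none was called by edgeR, DESeq2 or limma voom. The median log2 fold change was -0.00, and 1 gene had an unadjusted p under 0.05 in edgeR. Usp1, a deubiquitinase that stabilises Id proteins, was the most abundant of them, with 239, 257, 240 and 259 counts and a log2 fold change of 0.11 (SE 0.15). Among genes known to induce Id genes, the EGR, SRF, SMAD and TGFβ components, 17 of 19 were tested and none was called by these tools, with a median of -0.18 and 1 gene at an unadjusted p under 0.05 in edgeR. Smad3 was the most abundant of these, with 99, 94, 81 and 64 counts and a log2 fold change of -0.30 (SE 0.21). Egr2, named here after its values were seen because EGR factors induce Id3, had 16 and 16 against 5 and 4 counts, a log2 fold change of -1.70 (SE 0.59) and an adjusted p of 0.0949 in the edgeR test. Egr2 was the lowest of that list, whose tested genes ran up to 0.97, with 8 above and 9 below 0. A link of Egr2 to Id3 was not tested.

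Among known E protein targets, 10 of 15 were tested and 1 was called, with a median log2 fold change of 0.06. Il7r, the interleukin 7 receptor chain that sustains resting and memory T cells, had 19 and 18 counts in Il10-EGFP- T cells against 50 and 50 counts in Il10-EGFP+ T cells. It rose with a log2 fold change of 1.53 (SE 0.32, edgeR adjusted p = 0.00114). DESeq2 did not call Il7r (Wald test, adjusted p = 0.0614). The most abundant of the others, Ets1, a T cell transcription factor, had 225 and 179 against 217 and 244 counts, a log2 fold change of 0.30 (SE 0.15) that was not called. The thymocyte targets Rag1, Rag2, Zbtb16 and Notch3 had 0 counts in each library.

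Of the partners of TCF1, LEF1, BACH2 and SATB1, 19 of 23 were tested and 1 was called, with a median log2 fold change of 0.10. Tle1, a Groucho corepressor, had 10 and 9 counts in Il10-EGFP- T cells against 0 and 1 counts in Il10-EGFP+ T cells. It fell, with an adjusted p of 0.033 in the edgeR test, and over the summed counts of 19 and 1 was 17.7-fold higher in Il10-EGFP- T cells (exact counting interval 2.81 to 735.1). The call was lost with any 1 of the 4 libraries left out, where the log2 fold change of Tle1 ran from -6.21 to -3.06. limma voom did not call Tle1 either. Its relative Tle4, named after its values were seen, had 11 and 16 against 26 and 33 counts, a log2 fold change of 1.22 (SE 0.39) and an adjusted p of 0.0662 in edgeR. Ncor1, a corepressor and the most abundant of those not called, had 254, 280, 251 and 284 counts.

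The FOXO1 and KLF2 targets held both directions. Of 18 genes 17 were tested, 2 were called higher and 1 lower, with a median log2 fold change of 0.46 against 0.00 for all genes. Il7r and Ctla4, which encodes an inhibitory receptor, were the 2 higher ones in edgeR, and DESeq2 called Ctla4 but not Il7r. Ctla4 had 57 and 55 against 114 and 129 counts, a log2 fold change of 1.22 (SE 0.21, edgeR adjusted p = 6.96e-05). Ccr7, the receptor for lymph node homing, was the lower one, with 265 and 285 against 155 and 131 counts and a log2 fold change of -0.84 (SE 0.16, edgeR adjusted p = 0.000451).

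S1pr1, the receptor for egress from lymphoid tissue and a known target of KLF2, was named after its values were seen. It had 19 and 8 against 23 and 35 counts, a log2 fold change of 1.20 (SE 0.40) and an adjusted p of 0.0807 in edgeR. It did not pass the test, and a link to Klf2 was not tested. The tested FOXO1 and KLF2 targets ran from -1.05 to 1.53 on the log2 scale, with 13 above and 4 below 0. Bcl2l11, the most abundant of those not called, had 67, 69, 58 and 83 counts. In the FOXO and KLF families 11 of 22 genes were tested and none was called by edgeR, DESeq2 or limma voom, with a median of 0.12 and 1 gene at an unadjusted p under 0.05 in edgeR. Foxp1, a forkhead factor of naive T cells and their most abundant member, had 345 and 324 against 263 and 337 counts and a log2 fold change of -0.06 (SE 0.14).

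Of 30 quiescence and naive state genes 29 were tested, 1 was called higher and 1 lower, with a median log2 fold change of 0.20. Cdkn2c, an inhibitor of the G1 cyclin-dependent kinases, had 7 and 11 against 23 and 25 counts and rose with a log2 fold change of 1.50 (SE 0.46, edgeR adjusted p = 0.0446). The call was lost when Il10-EGFP- replicate 1, Il10-EGFP+ replicate 1 or Il10-EGFP+ replicate 2 was left out. Igfbp4, a transcript known from naive T cells, had 128 and 101 against 47 and 39 counts and fell with a log2 fold change of -1.30 (SE 0.22, edgeR adjusted p = 8.78e-05). Ikzf1, the most abundant of the others, had 328, 294, 295 and 290 counts and a log2 fold change of 0.02 (SE 0.14).

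Of 20 effector and memory regulators 19 were tested, 2 were called higher and 1 lower, with a median log2 fold change of -0.17. Prdm1, encoding BLIMP-1 and a known target of BACH2, had 12 and 16 against 52 and 67 counts and rose with a log2 fold change of 2.18 (SE 0.33, edgeR adjusted p = 5.88e-06). Maf, which promotes Il10 in T helper cells, had 367 and 349 against 608 and 731 counts and rose with a log2 fold change of 1.00 (SE 0.13, edgeR adjusted p = 3.58e-07). Rora, a nuclear receptor gene, had 85 and 92 against 31 and 31 counts and fell with a log2 fold change of -1.41 (SE 0.25, edgeR adjusted p = 0.000162). Runx3, a regulator of cytotoxic and type 1 cells, had 194, 185, 160 and 158 counts and was not called.

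**Figure D4:**
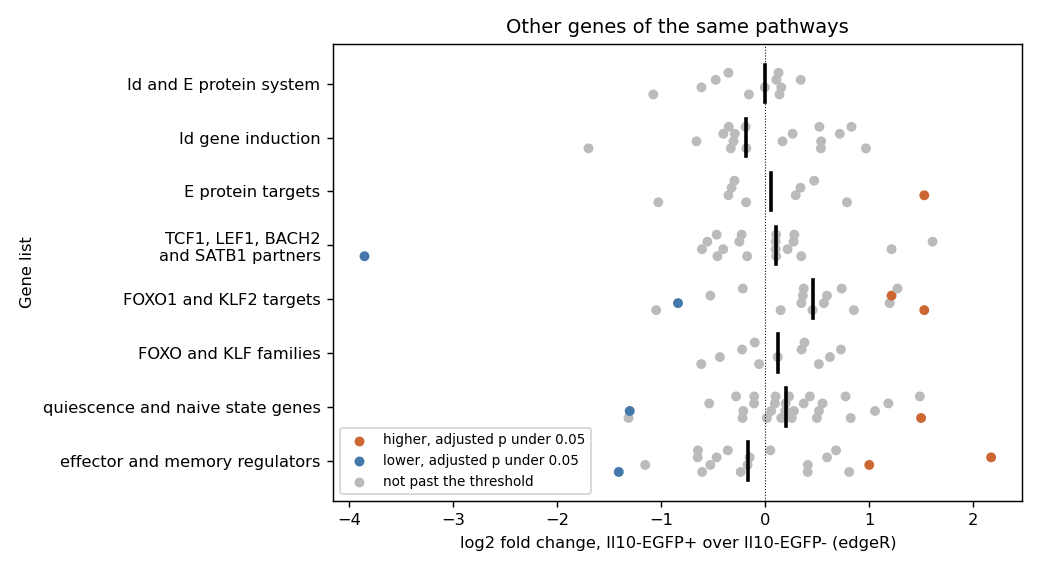
Log2 fold change in edgeR, Il10-EGFP+ over Il10-EGFP-, of every tested gene of the 8 pathway lists, 1 point per gene, with the median of each list as a vertical line. Orange genes were called higher and blue genes lower at an adjusted p under 0.05, and Tle1 is the lowest point of all, at -3.86. The medians run from -0.18 to 0.46, and in the Id and E protein system, the Id gene induction list and the FOXO and KLF families no gene passed the test.

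The genes whose pattern over the 4 libraries was most like that of Id2 were Prc1, Il7r and Aurka, by the root mean square difference of centred log2(CPM + 1) values, among the 6780 genes whose mean count was 10 or more. The differences were 0.07, 0.08 and 0.09 on the log2 scale. Prc1, a gene of the central spindle, had 53, 54, 128 and 140 counts, and Aurka, a mitotic kinase, had 13, 16, 36 and 42 counts. For Id3 they were Cd200, Akap1 and Dpy19l3, at larger differences of 0.41, 0.53 and 0.53. Cd200, a surface glycoprotein that restrains myeloid cells, had 85 and 111 against 17 and 16 counts, and Akap1, an anchor of protein kinase A, had 39, 26, 4 and 4. With 2 libraries a population, such likeness is set mainly by the difference between the populations.

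The 5 called genes kept their direction under each alternative that gave them an adjusted p, but fewer were called by DESeq2 and none under 1 edgeR setting. Id3 had no adjusted p with a mean of at least 20 counts or in DESeq2 with the replicate block. DESeq2's Wald test called Id2 and Bach2, gave Id3 no adjusted p, and did not call Tcf7 or Klf2. When edgeR was run with bias-adjusted deviances and without the filter on low counts, an alternative chosen after seeing the data, 0 of the 10 were called and 5 had an unadjusted p under 0.05, where the default calls 5, limma voom 5 and DESeq2 2. In that setting 8 genes in all passed, with 1474 at an unadjusted p under 0.05. Because the members were chosen with this comparison known, their calls only describe how the result depends on the setting.

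**Figure D5:**
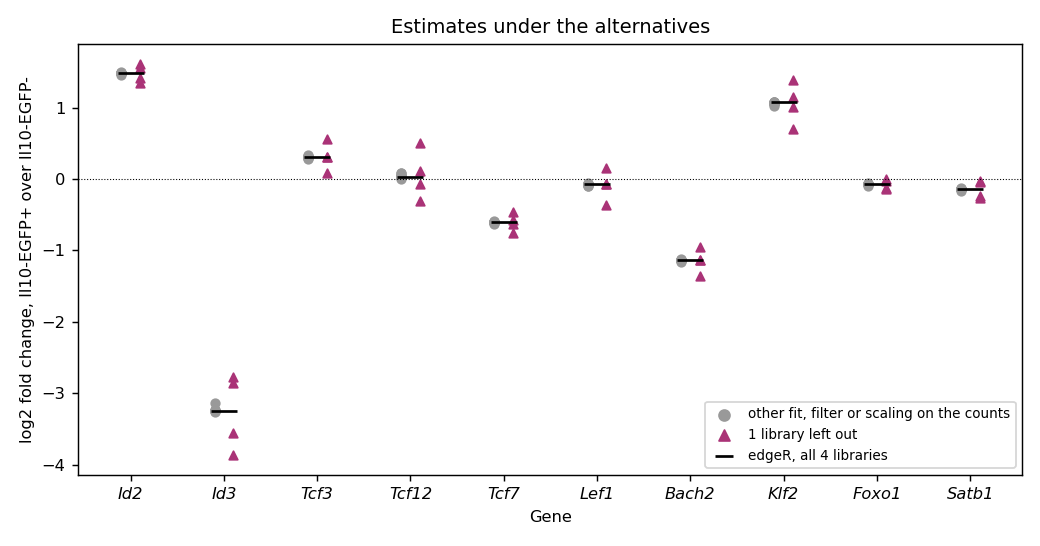
Log2 fold change of each of the 10 genes under the alternatives on the counts. Black bars are the reported edgeR values, grey circles other tests, filters, scalings or the replicate block, and purple triangles the values with 1 library left out. Id2, Klf2, Id3, Tcf7 and Bach2 stay on their side of 0, at 1.35 to 1.62 for Id2 and -3.87 to -2.78 for Id3 with 1 library left out, whereas Tcf12 and Lef1 fall on both sides.

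Some reads of the 10 genes could belong to neighbours, because the strand option of the counting is not given in the sources used here. Exons of Lef1, Bach2 and Foxo1 overlap the antisense genes Gm43352, Bach2os and Gm20402, which had 6, 1 and 0 counts over the 4 libraries. Exons of Satb1 overlap Gm36931 and Gm6934, which had 10 and 3 counts. Id2, Id3 and Klf2 had no such overlap, and their transcript ends shared no sequence of 50 bases with another gene.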

How the data were processed

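The deposited files were a table of read counts by Ensembl gene and a table of rlog values by symbol, the latter log2 values that the authors computed with DESeq2. The submitters' processing notes name STAR 2.5.2a, HTSeq 0.6.0 and the build GRCm38 (mm10). The annotation release, the strand option and whether molecular identifiers entered the counts are not given in the sources used here. The kit for RNA extraction is Picopure in the methods and PureLink in the labels. Reads not collapsed by molecular identifiers are not independent molecules, and exact (Clopper-Pearson) intervals cover counting error only.

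Genes that reached 10 counts in total entered edgeR 4.0.16 in R 4.3.3 (TMM, glmQLFit and glmQLFTest with default settings, Il10-EGFP+ against Il10-EGFP-, no covariate). Benjamini-Hochberg adjustment ran over all tested genes, with a threshold of 0.05. Standard errors are the fold change divided by the root of F, and 95% intervals use the residual and prior degrees of freedom. With 2 libraries a population these intervals lean on the spread shared across genes. DESeq2 1.42.0, limma 3.58.1 (voom, and limma on the rlog values), other scalings and filters, the replicate number as a block, and fits with 1 library removed were alternatives. With a library left out, the lone library of that population is assumed to vary like the others. The edgeR fit was run on simulated counts with the same dispersion for every gene and no replicate effect. That checks the code and not the calls made here.

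Members and gene lists were chosen with earlier results of these data known. Besides the 10 members, the genes named are those past the threshold in each list (the 4 with the largest change where there are more), the most abundant gene of each list that did not pass, and for Id2 and Id3 the 3 genes most like each in pattern. Any further gene is marked in the text. Symbols came from a gene name table that lacked 419 of the 47643 identifiers. Coordinates came from GENCODE M21 on GRCm38, and sequences and transcription starts from RefSeq on the same build. No protein sequence was used here. The values of 1 listed gene are not reported here.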

Additional observations from a re-analysis of the deposited data

How the results depend on the processing

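No result changed direction past the threshold under any alternative. Of 157 values of the 10 genes under the alternatives, 144 kept the call or its absence, and 13 kept the direction but lost the call. The 144 include uncalled values of Tcf12 and Lef1, whose sign changed with 1 library left out (-0.32 to 0.50 and -0.36 to 0.16). Where DESeq2 gave no adjusted p (4284 genes without and 6147 with the replicate block), a gene was left out of these counts.

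DESeq2 called 112 genes against 393, 2 of the 10 members against 5, 0 E protein targets, 0 partners of TCF1, LEF1, BACH2 and SATB1, and 1 quiescence gene. With edgeR's bias-adjusted deviances combined with all unfiltered genes, an alternative chosen after seeing the data, 8 genes, 0 members, 0 E protein targets, 0 partners, 0 FOXO1 and KLF2 targets, 0 quiescence genes and 1 effector regulator were called, although either change alone called 392 and 396 genes. limma voom called 2 E protein targets and 0 partners. With a mean of at least 20 counts Id3 and Tle1 were untested, so that the 2 partners called there were other genes. Scaling by library size only left 1 quiescence gene. The cause was not tested.

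Leaving out 1 library at a time gave 212 to 272 genes (223 when Il10-EGFP- replicate 1 and 212 when Il10-EGFP+ replicate 2 was the one left out), 4 to 5 members, 1 to 2 E protein targets, 0 partners in each case and 1 to 3 quiescence genes. The Id2 to Id3 change ran from 4.36 to 5.36, and was 1.14 on the rlog scale, whose construction shrinks low counts. The Id to E protein change ran from 0.20 to 1.30, that of Id2 to E protein from 0.82 to 1.77, and that of Tcf7 to Lef1 from -0.91 to -0.10.

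The methods speak of a biological replicate pair, which points to both populations sorted from 1 mouse, but no source ties the replicate numbers of these libraries to mice. Across 4965 genes, libraries with the same number deviated from their population means with a correlation of 0.03. Counting noise lowers such a value, so that it does not decide whether the libraries were paired. The fit without the pairing was kept because no source gives the pairs. With the replicate block edgeR called 560 genes, the 5 members, 2 E protein targets and 3 partners, and DESeq2 called 39 genes, 1 member, 0 E protein targets, 0 partners, 0 FOXO1 and KLF2 targets and 0 quiescence genes. Depth limits the low genes most: in Il10-EGFP+ T cells Id3 rests on 4 and 2 counts and Tle1 on 0 and 1.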
